A study of Mus musculus with 12 samples.

Results

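The urea cycle and ammonia genes described here were 9 rows of the raw count tables named Cps1, Otc, Ass1, Asl, Nags, Slc25a15, Slc25a13, Gls2 and Glud1, out of 23391 genes listed in either table and 20093 listed in both. All 9 were listed in both tables and passed the filter on low counts. They were followed across livers of 12 male mice in 4 groups of 3. All mice were C57BL/6N males carrying a floxed Elavl1 allele (HuR flox/flox), 4 to 6 months old per the labels. Mice labelled HuRHep-/- had received AAV8-Tbg-Cre, a virus in which the TBG promoter drives Cre in hepatocytes, and mice labelled WT had received AAV8-Tbg-null. One pair of groups was kept on normal chow. The other pair was fed HFCF, a diet high in fat (40 kcal%), cholesterol (2%) and fructose (20 kcal%), for 16 weeks. The paper instead describes a cross with albumin-Cre mice, and the counts give no way to choose between these accounts.

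The libraries held between 30071731 and 35949203 counts. Elavl1, which encodes HuR, is the targeted gene and was checked first. On chow it was read at 30.9, 29.3 and 31.0 CPM, the count as a share of a TMM-scaled library total, in livers labelled WT and at 42.8, 39.2 and 38.8 CPM in livers labelled HuRHep-/-. On HFCF it was read at 23.9, 24.1 and 27.0 CPM in livers labelled WT and at 32.4, 32.2 and 34.2 CPM in livers labelled HuRHep-/-. Elavl1 was thus higher, not lower, in livers labelled HuRHep-/- (log2 fold change 0.41 on chow, adjusted p = 0.0219, and 0.38 on HFCF, adjusted p = 0.0327). It was lower on HFCF than on chow in both genotypes (-0.28, adjusted p = 0.0119 in WT, and -0.29, adjusted p = 0.00671 in HuRHep-/-), with an interaction of -0.0044 (adjusted p = 0.989). The genotype difference runs counter to the labels, and per-gene counts do not show the floxed part of Elavl1 separately. Every genotype direction below therefore rests on the labels alone.

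The urea cycle turns ammonia, which is toxic to the brain, into urea, and in mammals runs in full mainly in periportal hepatocytes. NAGS makes N-acetylglutamate, the activator of CPS1. CPS1 and OTC work in the mitochondrial matrix and make carbamoyl phosphate and citrulline. ASS1 and ASL act in the cytosol. The carriers SLC25A15 (ornithine) and SLC25A13 (citrin, aspartate against glutamate) link both compartments. GLS2, the liver glutaminase, and GLUD1, glutamate dehydrogenase, release ammonia from glutamine and glutamate. Ammonia that escapes the cycle is taken up by pericentral hepatocytes, where glutamine synthetase, encoded by Glul, fixes it into glutamine. Glul is not among the 9 genes and was read beside them.

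HuR binds uridine-rich and AU-rich stretches in the 3′ untranslated regions (3′UTRs) of mRNAs, so these were read from GENCODE transcripts of GRCm38 for each member. Runs of at least 7 T stood in the 3′UTRs of Cps1 (2 runs), Glud1 (2 runs) and Slc25a15 (1 run), and in none of the other 6 members. Among 3′UTRs within 10% of the length of that of Cps1 (913 bases), 35.4% hold such a run, and the shares were 50.2% for the length of Glud1 and 64.0% for that of Slc25a15. The letters ATTTA occurred 7 times in the 1122 bases of the Otc 3′UTR, a count reached by 2.86% of 3′UTRs of like length. Ass1, Asl and Nags held no ATTTA, and the longer letters TTATTTATT were in none of the 9. The sites below are shown because they are the longest T runs of 3 members and 3 of the ATTTA sites of Otc, with the T run or the ATTTA in capitals and 7 bases on either side. Positions count from the first base after the stop codon. A match is a description of letters and not a binding site.
Cps1, chromosome 1, position 462: attgttaTTTTTTTTTggcaatg
Cps1, chromosome 1, position 815: tgcaacaTTTTTTTTTctttctt
Glud1, chromosome 14, position 1321: cctggaaTTTTTTTTTTTaccttcc
Slc25a15, chromosome 8, position 499: ggctaacTTTTTTTTTTTTTTTaaacttt
Otc, chromosome X, position 399: catgctcATTTAtaaataa
Otc, chromosome X, position 595: tcttatcATTTAtggaaat
Otc, chromosome X, position 1004: taatgtaATTTActtcatg

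RefSeq promoters (GRCm38.p6, 250 bases before to 50 after the start) were matched for 6 of the 9 members and for Glul. They were searched on both strands for 8 motifs: TTGCNNAA (C/EBP), TGACGTCA (CRE), CAAAGTCCA (HNF4), an HNF1 motif, a glucocorticoid response element, CCAAT, the TATA box (TATAAA) and the GC box (GGGCGG). A GC box stood in 4 of the 6 (Ass1, Glud1, Nags, Slc25a15) against 35.7% of all 32851 promoters, and CCAAT in 1 of the 6 (Slc25a13) against 37.4%. The C/EBP letters were in none of the 6, against 10.8% of all promoters. The promoters of Otc, whose mRNA was lower on HFCF in both genotypes, of Ass1, of Glud1, which did not pass the test in either diet comparison, and of Glul are given with the motifs in capitals. That of Otc was the poorest in G and C (44.3%, with 20.1% of all promoters poorer) and held none of the motifs, whereas that of Glud1 held 81.0% G and C. That of Glul held CCAAT at 2 places and a GC box.
Otc, chrX:10252055-10252354, plus strand: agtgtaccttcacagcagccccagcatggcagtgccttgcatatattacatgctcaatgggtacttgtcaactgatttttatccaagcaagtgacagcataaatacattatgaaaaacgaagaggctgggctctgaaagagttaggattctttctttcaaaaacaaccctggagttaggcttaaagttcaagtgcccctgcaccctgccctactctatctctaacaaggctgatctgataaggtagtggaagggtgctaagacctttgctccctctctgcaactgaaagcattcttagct
Ass1, chr2:31470020-31470319, plus strand: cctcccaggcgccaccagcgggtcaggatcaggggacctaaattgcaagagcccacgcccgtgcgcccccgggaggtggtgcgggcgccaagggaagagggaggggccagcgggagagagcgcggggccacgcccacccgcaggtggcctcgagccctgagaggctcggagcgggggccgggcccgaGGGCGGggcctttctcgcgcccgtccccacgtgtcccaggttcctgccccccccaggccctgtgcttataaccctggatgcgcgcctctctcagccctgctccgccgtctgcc
Glud1, chr14:34310477-34310776, plus strand: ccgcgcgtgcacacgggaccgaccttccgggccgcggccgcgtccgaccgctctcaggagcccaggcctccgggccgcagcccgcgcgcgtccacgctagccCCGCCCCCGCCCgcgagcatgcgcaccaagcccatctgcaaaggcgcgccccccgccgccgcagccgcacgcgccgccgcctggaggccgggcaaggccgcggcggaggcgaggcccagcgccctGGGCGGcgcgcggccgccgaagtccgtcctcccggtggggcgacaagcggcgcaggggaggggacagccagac
Glul, chr1:153899679-153899978, plus strand: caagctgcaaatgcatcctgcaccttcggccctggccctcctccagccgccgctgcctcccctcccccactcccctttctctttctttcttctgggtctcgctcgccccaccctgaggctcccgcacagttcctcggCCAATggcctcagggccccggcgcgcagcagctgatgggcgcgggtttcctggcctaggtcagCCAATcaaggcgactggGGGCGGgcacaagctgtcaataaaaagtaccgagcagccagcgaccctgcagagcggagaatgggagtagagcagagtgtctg

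In chow-fed livers labelled WT, Ass1 had the highest level per length among the members, at 2459 ± 130 RPKM (CPM per kilobase of transcript, SD, n = 3). Cps1 followed at 431 ± 17.8 RPKM. Asl, Glud1 and Otc lay close together at 263 ± 20.4, 249 ± 17.7 and 235 ± 6.74 RPKM, and each overlapped its neighbour in this order. Gls2 stood at 153 ± 8.75 RPKM. The carriers Slc25a15 (68.0 ± 6.51) and Slc25a13 (63.5 ± 4.02) overlapped each other, and Nags was lowest at 32.4 ± 1.36 RPKM. The 9 genes together took between 0.838% and 0.872% of the counts of these libraries. Ass1 shares 61.8% of its words of 30 bases with other transcripts, mainly those of Gm5424, but Gm5424 was listed at 25 to 144 counts per library, at most 0.119% of the Ass1 count. Glud1 shares 13.4% of its words and Glul 23.9% with other transcripts, mainly those of a pseudogene each, so their counts are uncertain to the extent that the counting split such reads.

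**Figure D1:**
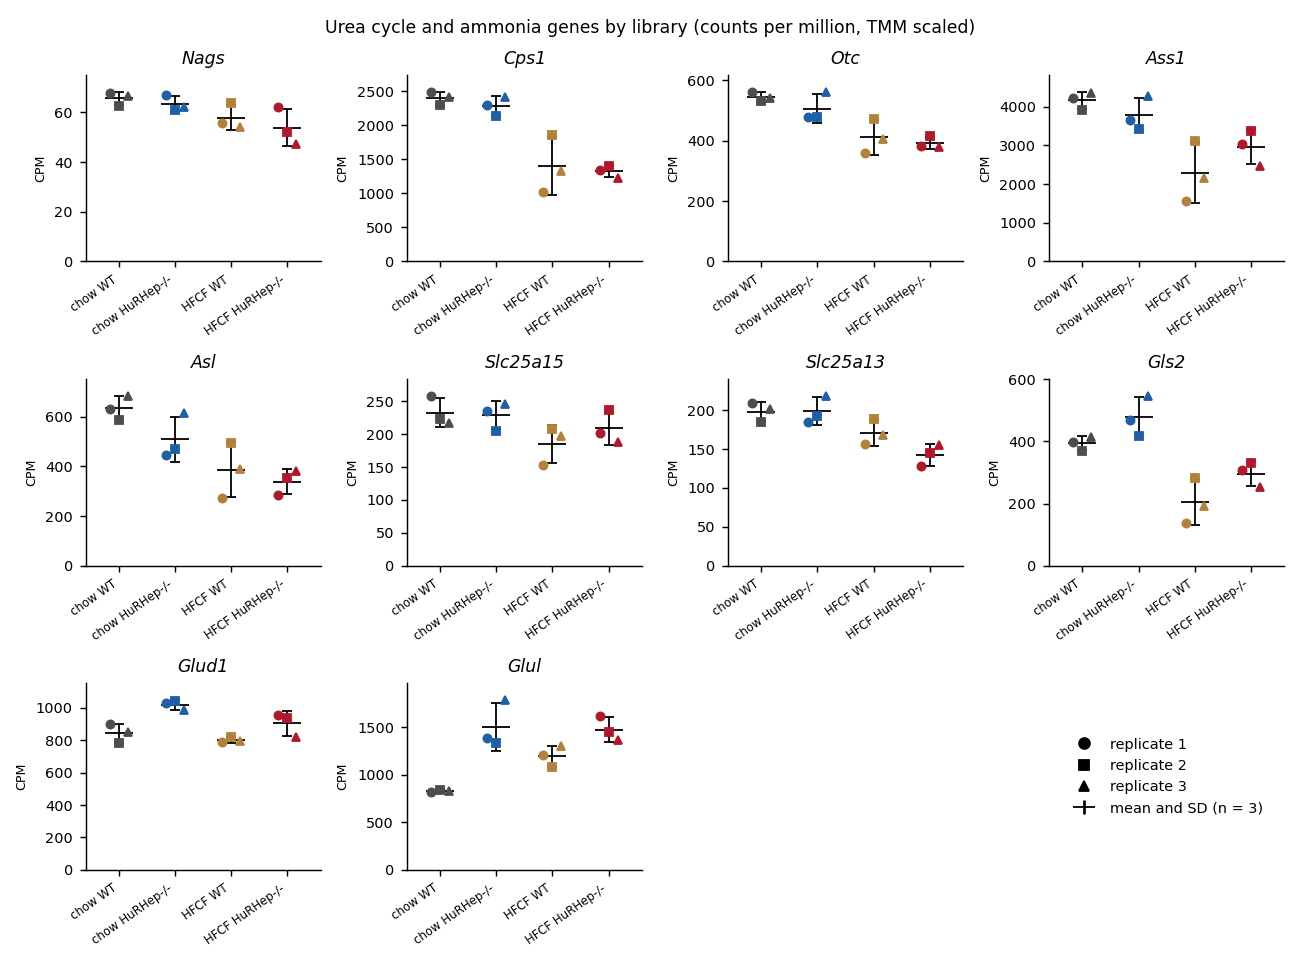
CPM (TMM scaled) of the 9 members and of Glul in each of the 12 livers. Symbols mark replicates, horizontal marks the mean and bars the SD (n = 3). Cps1, Otc, Asl, Ass1 and Gls2 sit lower in HFCF than in chow livers of the same genotype in every library, and HFCF WT replicate 2 is the highest of its group for all 9 members.

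The main question of the diet comparison was which of these genes differed between HFCF-fed and chow-fed livers. In livers labelled WT, 5 of the 9 members were lower on HFCF at an adjusted p of at most 0.05 (limma): Cps1, Otc, Ass1, Asl and Gls2. These are 4 enzymes of the cycle and the glutaminase that feeds it. Over all 14535 genes tested, 12.8% were lower by this rule, and 24.7% of the 2045 genes at or above the mean CPM of the lowest member. In livers labelled HuRHep-/-, 5 of the 9 were also lower: Cps1, Otc, Asl, Gls2 and Slc25a13. There 19.1% of all genes were lower by this rule, and 35.9% of the genes at or above that level. Passing in both genotypes were 4 members, and Nags, Slc25a15 and Glud1 passed in neither. No member was higher. Without overlap between the diets, 6 members lay lower in WT, where 19.8% of all genes did, and 7 in HuRHep-/-, where 27.1% did. The median log2 fold change of the 9 was -0.41 in WT and -0.37 in HuRHep-/-, beside 0.011 and 0.0027 for all genes. Both diet comparisons were fitted together, and the chow and HFCF livers were deposited in separate tables, so diet and table cannot be told apart. In bulk tissue, fewer cells of a type and less RNA per cell cannot be told apart either.

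Among the mitochondrial steps, Cps1 was read at 2484, 2288 and 2410 CPM in chow WT and at 1014, 1850 and 1331 CPM in HFCF WT livers. It was read at 2302, 2131 and 2408 CPM in chow HuRHep-/- and at 1338, 1399 and 1229 CPM in HFCF HuRHep-/- livers. Neither pair of groups overlapped. Cps1 was 43.3% lower on HFCF in WT (log2 fold change -0.82, SE 0.17, adjusted p = 0.00606) and 42.0% lower in HuRHep-/- (-0.79, SE 0.17, adjusted p = 0.00435). Otc was read at 561, 531 and 541 CPM in chow WT, 357, 472 and 405 CPM in HFCF WT, 478, 478 and 562 CPM in chow HuRHep-/- and 383, 414 and 378 CPM in HFCF HuRHep-/- livers. Its groups did not overlap by diet in either genotype, and the fall was smaller than that of Cps1, 24.9% in WT (-0.41, SE 0.10, adjusted p = 0.0127) and 22.4% in HuRHep-/- (-0.37, SE 0.10, adjusted p = 0.0139). Nags lay between 62.5 and 67.8 CPM in chow WT and between 54.2 and 63.6 CPM in HFCF WT livers, which overlapped (-0.18, SE 0.10, adjusted p = 0.182). With HuRHep-/- labels it lay between 61.0 and 67.1 CPM on chow and between 47.3 and 62.1 CPM on HFCF (-0.24, SE 0.10, adjusted p = 0.0656).

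Among the cytosolic enzymes, Ass1 was read at 4231, 3925 and 4355 CPM in chow WT and at 1566, 3118 and 2166 CPM in HFCF WT livers. It was read at 3655, 3416 and 4286 CPM in chow HuRHep-/- and at 3024, 3374 and 2478 CPM in HFCF HuRHep-/- livers. Ass1 is the step that joins citrulline to aspartate. It was 47.3% lower in WT (-0.92, SE 0.21, adjusted p = 0.00979), and in HuRHep-/- livers the estimate was -0.36 (SE 0.21, 95% interval -0.82 to 0.10, adjusted p = 0.198). Asl, which splits argininosuccinate, was read at 631, 587 and 685 CPM in chow WT, 274, 496 and 392 CPM in HFCF WT, 447, 469 and 615 CPM in chow HuRHep-/- and 283, 353 and 381 CPM in HFCF HuRHep-/- livers. Groups did not overlap by diet, and Asl was 40.6% lower in WT (-0.75, SE 0.19, adjusted p = 0.0172) and 33.4% lower in HuRHep-/- (-0.59, SE 0.19, adjusted p = 0.0328).

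Of the carriers, Slc25a13 was read at 209, 184 and 202 CPM in chow WT and 156, 189 and 168 CPM in HFCF WT livers, which overlapped (-0.22, SE 0.10, adjusted p = 0.119). In HuRHep-/- livers it was read at 185, 193 and 219 CPM on chow and 128, 145 and 155 CPM on HFCF, without overlap, and was 28.2% lower (-0.48, SE 0.10, adjusted p = 0.00306). Slc25a15 lay between 218 and 259 CPM in chow WT and between 153 and 208 CPM in HFCF WT livers (-0.34, SE 0.13, adjusted p = 0.0729). Its HuRHep-/- ranges of 206 to 246 CPM on chow and 188 to 237 CPM on HFCF overlapped (-0.13, SE 0.13, adjusted p = 0.42).

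Of the ammonia-releasing enzymes, Gls2 was read at 399, 370 and 414 CPM in chow WT and 136, 283 and 193 CPM in HFCF WT livers. It was read at 470, 418 and 547 CPM in chow HuRHep-/- and 307, 330 and 253 CPM in HFCF HuRHep-/- livers. No diet groups overlapped, and Gls2 had the largest estimate of the 9 in WT, 50.4% lower on HFCF (-1.01, SE 0.21, adjusted p = 0.006), and was 38.0% lower in HuRHep-/- (-0.69, SE 0.21, adjusted p = 0.0225). Glud1 was steadier, with 781 to 900 CPM in chow WT and 789 to 821 CPM in HFCF WT livers (-0.07, SE 0.08, adjusted p = 0.56), and 985 to 1043 CPM on chow and 819 to 959 CPM on HFCF in HuRHep-/- livers (-0.18, SE 0.08, adjusted p = 0.106). Glul, on the glutamine-making side, went the other way in WT: it was read at 822, 836 and 823 CPM on chow and 1204, 1079 and 1300 CPM on HFCF, and rose by 0.53 on the log2 scale (SE 0.12, adjusted p = 0.00872). Glul in HuRHep-/- livers was read at 1390, 1329 and 1786 CPM on chow and 1618, 1445 and 1361 CPM on HFCF, with overlap (-0.02, SE 0.12, adjusted p = 0.923). The ratio of Glul to Gls2 CPM ran from 1.99 to 2.26 in chow WT, 2.96 to 3.26 in chow HuRHep-/-, 3.81 to 8.85 in HFCF WT and 4.38 to 5.37 in HFCF HuRHep-/- livers, so that the HFCF ranges lay above the chow range of each genotype.

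**Figure D2:**
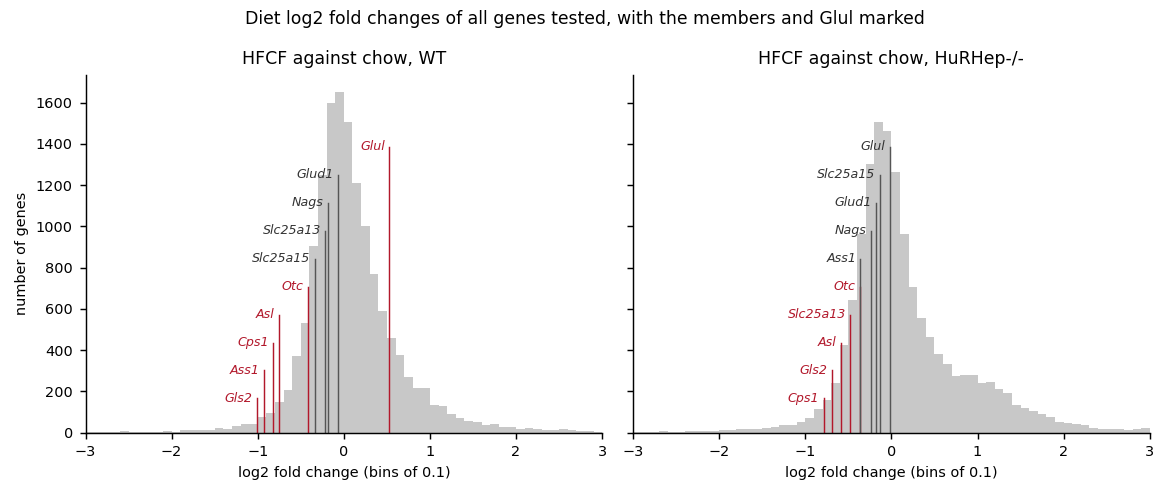
Number of genes (y axis, bins of 0.1) by log2 fold change of HFCF against chow (x axis, shown from -3 to 3) in livers labelled WT (left) and HuRHep-/- (right), with vertical lines at the members and Glul. Red marks an adjusted p of at most 0.05. All 9 members lie left of 0 in both panels, from -1.01 to -0.07 in WT and from -0.79 to -0.13 in HuRHep-/-.

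The size of these falls depended on how the libraries were scaled. TMM factors ran from 0.882 to 0.936 in chow WT, 0.914 to 0.989 in chow HuRHep-/-, 0.974 to 1.05 in HFCF WT and 1.11 to 1.13 in HFCF HuRHep-/- livers. As a plain share of all counts, the 9 members took 0.838% to 0.872% in chow WT and 0.474% to 0.730% in HFCF WT livers. The shares were 0.823% to 0.908% in chow HuRHep-/- and 0.673% to 0.801% in HFCF HuRHep-/- livers, so neither diet pair overlapped. With library totals and no factors, a setting added after the data were seen, the median of all genes moved to 0.19 in WT and 0.23 in HuRHep-/-. Relative to 0 on that scale, Cps1, Otc, Ass1, Asl and Gls2 passed in WT, from -0.23 for Otc to -0.83 for Gls2, while in HuRHep-/- livers 2 passed, Cps1 (-0.56) and Slc25a13 (-0.25). Of all genes, 28.3% passed in WT and 41.7% in HuRHep-/- with this setting, in either direction. Glud1 turned to 0.11 in WT and 0.05 in HuRHep-/-, and Slc25a15 to 0.09 in HuRHep-/-. With RLE or upper-quartile factors all 9 estimates stayed below 0 in both genotypes.

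Single libraries also decided calls. HFCF WT replicate 2 was the highest of its group for 9 of 9 members, and replicate 1 the lowest for 8 of 9. Their summed levels were 7501 and 4500.1 CPM, a ratio of 1.67, against ratios of 1.09 to 1.22 in the other groups. Leaving out each library in turn gave 4 to 7 members lower in WT, with 4 without chow WT replicate 1, chow WT replicate 3 or HFCF WT replicate 1 (Asl lost) and 7 without HFCF WT replicate 2 (Slc25a15 and Slc25a13 added). The share of all genes that passed, in either direction, was 24.2% with all libraries, and 13.7%, 15.9%, 16.4% and 27.3% in these 4 fits. The Asl estimates that missed the threshold were -0.75, -0.69 and -0.52 (adjusted p = 0.0512, 0.0601 and 0.0539). In HuRHep-/- it gave 2 to 5, with 2, Cps1 and Slc25a13, without chow HuRHep-/- replicate 3, which was the highest of its group for 7 of 9 members, and where 28.8% of all genes passed against 38.9% with all libraries. Without that library the estimates were -0.59 for Gls2 (adjusted p = 0.0814), -0.44 for Asl (adjusted p = 0.126) and -0.29 for Otc (adjusted p = 0.0576). Asl also missed the threshold without chow HuRHep-/- replicate 2, HFCF HuRHep-/- replicate 1 or HFCF HuRHep-/- replicate 2 (-0.64, -0.46 and -0.62, adjusted p = 0.0514, 0.125 and 0.0598), and Gls2 without HFCF HuRHep-/- replicate 3 (-0.58, adjusted p = 0.0804). Without HFCF HuRHep-/- replicate 1, Nags passed (-0.35, adjusted p = 0.0155), so that the 5 held Nags and not Asl. In these 4 fits 32.2%, 28.0%, 30.1% and 30.9% of all genes passed. With a fold change of at least 1.5 required as well, the counts were 4 in WT, where 3.24% of all genes were lower by that rule, and 3 in HuRHep-/-, where 4.9% were.

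The genotype comparison asked which members differed between livers labelled HuRHep-/- and WT on the same diet. On chow, 0 of the 9 passed (limma), where 4.21% of 13526 genes did, and 3 had an unadjusted p under 0.05, where 23.5% of genes did. These were Glud1 (0.28, SE 0.08, adjusted p = 0.0887), Gls2 (0.28, SE 0.10, adjusted p = 0.158) and Asl (-0.32, SE 0.13, adjusted p = 0.18). Glud1 was read at 900, 781 and 849 CPM in WT and 1031, 1043 and 985 CPM in HuRHep-/- livers, without overlap. Groups of Gls2 also did not overlap, and 15.3% of all genes were higher without overlap. For the other 6 members the estimates ran from -0.14 for Ass1 to 0.0072 for Slc25a13, and the 95% interval for Cps1 was -0.28 to 0.15. With array quality weights 2 members passed, Asl (-0.42, adjusted p = 0.0348) and Glud1 (0.28, adjusted p = 0.0336), and so did 14.0% of all genes. Asl also passed without chow HuRHep-/- replicate 3 (-0.46, adjusted p = 0.0395), and Glud1 with library totals (0.36, adjusted p = 0.0403). In these 2 fits 3.76% and 5.12% of all genes passed.

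Glul did pass on chow. It was 1.81-fold higher in livers labelled HuRHep-/- (0.85, SE 0.12, adjusted p = 0.0131), all 3 of which lay above every WT library. Without chow WT replicate 1, chow WT replicate 3 or chow HuRHep-/- replicate 2 it missed the threshold, with estimates of 0.85, 0.85 and 0.94 and adjusted p of 0.0546, 0.0618 and 0.0519. In these fits 1.01%, 0.657% and 0.0676% of all genes passed, against 4.21% with all libraries. Of 25 other ammonia genes tested (28 listed), 3 passed on chow, all higher: Glul, Prodh, which oxidises proline (0.52, adjusted p = 0.0352), and Gpt, alanine aminotransferase (0.36, adjusted p = 0.0445). Among 7 periportal markers, 1 passed, Cdh1 (0.84, adjusted p = 0.0219), and among 10 pericentral markers 1, Glul itself. Acute-phase genes moved in these same livers, 4 of 6 passing and all higher (Saa1, 4.01, adjusted p = 0.0211), with a summed level of 2677 to 2784 CPM in WT and 3929 to 8040 CPM in HuRHep-/- livers. The summed level of Kupffer cell markers also did not overlap, at 116 to 145 CPM in WT and 168 to 247 CPM in HuRHep-/- livers, nor did that of hepatocyte markers, at 83590 to 104759 and 69529 to 74536 CPM, although 0 of 6 Kupffer and 0 of 5 hepatocyte markers passed (limma; 4 and 1 had an unadjusted p under 0.05). Hp made up most of the acute-phase sum and Alb most of the hepatocyte sum. Alb had means of 74063 CPM in WT and 52650 CPM in HuRHep-/- livers (-0.48, adjusted p = 0.359, limma). Of the 5 hepatocyte estimates 4 were lower, and that of Fgb was higher (0.11). The part of these lists in the result was not tested.

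On HFCF, 0 of the 9 members passed between genotypes (limma), where 6.84% of 14295 genes did, and 1 had an unadjusted p under 0.05, where 29.5% of genes did. That was Slc25a13 (-0.28, SE 0.10, adjusted p = 0.122), whose HuRHep-/- libraries all lay below the WT libraries, as for 19.2% of all genes. Gls2 (0.58, SE 0.25, 95% interval -0.00021 to 1.16, adjusted p = 0.169) and Ass1 (0.40, SE 0.25, 95% interval -0.18 to 0.99, adjusted p = 0.317) had the largest estimates. Without HFCF WT replicate 2, Gls2 passed (0.85, adjusted p = 0.0455), as did 4.97% of all genes. With array quality weights 2 passed, Gls2 (0.91, adjusted p = 0.0247) and Ass1 (0.73, adjusted p = 0.0477), as did 16.5% of all genes. Cps1 (-0.05, SE 0.20) had a 95% interval of -0.53 to 0.42, which does not show equal levels. Glul was 0.29 higher (SE 0.11, adjusted p = 0.132).

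Of the 25 other ammonia genes, 3 passed between genotypes on HFCF. Slc1a2, a glutamate transporter of pericentral hepatocytes, was read at 112, 146 and 123 CPM in WT and 65.4, 76.2 and 81.3 CPM in HuRHep-/- livers (-0.78, adjusted p = 0.0217). Rhbg, an ammonia channel of the same zone, was read at 6.18, 7.97 and 10.9 CPM in WT and 15.8, 19.9 and 14.7 CPM in HuRHep-/- livers (1.02, adjusted p = 0.0397). Aadat, an aminotransferase, was lower (-0.60, adjusted p = 0.0498). These pericentral genes thus moved in opposite directions. Cyp2e1, also pericentral, was lower (-0.76, adjusted p = 0.0464), and 0 of 7 periportal markers passed. Cholangiocyte markers were higher, 2 of 5 passing (Krt19, 1.32, adjusted p = 0.0248, and Krt7, 1.40, adjusted p = 0.0328), with a summed level of 8.43 to 12.7 CPM in WT and 18.6 to 29.3 CPM in HuRHep-/- livers and no marker of the list at 0. Of 5 hepatocyte markers 1 passed, Apob (-0.49, adjusted p = 0.0355), and their summed level ran from 61544 to 64833 CPM in WT and 56968 to 59987 CPM in HuRHep-/- livers. Sums also did not overlap for acute-phase genes (2782 to 3885 CPM in WT, 4045 to 5208 CPM in HuRHep-/-), lymphocyte markers (1.89 to 3.27 and 4.66 to 5.70 CPM) and neutrophil markers (2.14 to 3.27 and 4.17 to 5.36 CPM), of which 0 of 6, 0 of 6 and 0 of 3 genes passed (limma, with 3, 4 and 2 at an unadjusted p under 0.05). Hp made up most of the acute-phase sum, with means of 2994 CPM in WT and 4318 CPM in HuRHep-/- livers. Groups overlapped for Saa1, Saa2 and Saa3. The pericentral sum did not overlap either, at 11723 to 13571 CPM in WT and 8224 to 9542 CPM in HuRHep-/- livers. The part of these lists in the genotype values on HFCF was not tested.

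**Figure D3:**
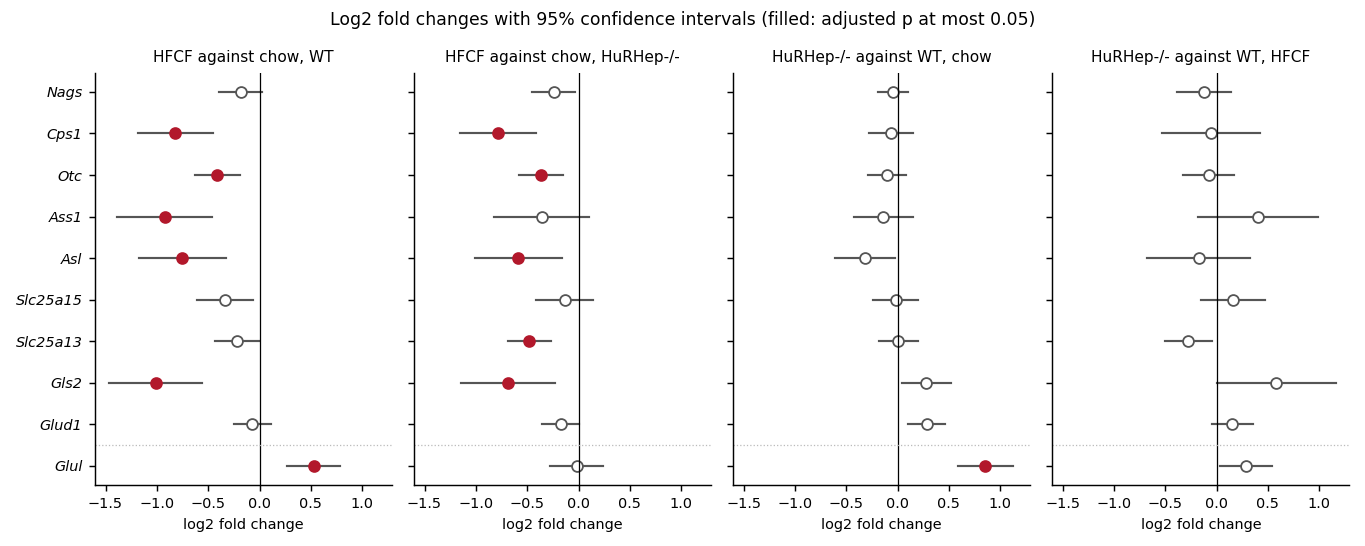
Log2 fold changes (points) with 95% confidence intervals (lines) of the 9 members and Glul in the diet comparisons (left pair) and the genotype comparisons (right pair). Filled points passed at an adjusted p of at most 0.05 (limma). The diet panels hold 5 filled members each, the genotype panels hold none, and Glul is filled for diet in WT (0.53) and for genotype on chow (0.85).

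Whether the diet effect differed between genotypes was tested as an interaction over the 12 livers. Among the 9 members 0 passed and 0 had an unadjusted p under 0.05, where 0% and 14.3% of 14535 genes did; 60 genes passed with array quality weights, none of them a member. Ass1 had the largest estimate (0.56, SE 0.30, 95% interval -0.09 to 1.22, adjusted p = 0.414), followed by Gls2 (0.32, SE 0.30, adjusted p = 0.652) and Slc25a13 (-0.26, SE 0.14, adjusted p = 0.407). So the fall of Ass1 on HFCF, which passed in WT and not in HuRHep-/-, and that of Slc25a13, which did the reverse, were not shown to differ between genotypes. For Cps1 the interaction was 0.03 (95% interval -0.49 to 0.56). Slc25a15 (0.20), Asl (0.17), Otc (0.05), Nags (-0.06) and Glud1 (-0.11) had adjusted p of 0.64, 0.827, 0.913, 0.886 and 0.711. Glul had an unadjusted p of 0.0069 (-0.54, SE 0.17, adjusted p = 0.209).

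Other ammonia genes passed in both directions on HFCF. Over all 14535 genes tested, 1649 were higher and 1865 lower in WT, and 2870 were higher and 2780 lower in HuRHep-/-. The same background holds for the other lists in the diet comparisons below. Of the 25 other ammonia genes in WT livers, 4 were higher and 4 lower, with a median of 0.07. The largest of these falls was that of Got1, the cytosolic aspartate aminotransferase (-1.04, adjusted p = 0.00959), while its mitochondrial partner Got2 was higher (0.31, adjusted p = 0.00873). Fh1, fumarate hydratase, was lower (-0.55, adjusted p = 0.0022). The mitochondrial deacylases that act on cycle enzymes split, with Sirt5 higher (0.50, adjusted p = 0.00394) and Sirt3 lower (-0.31, adjusted p = 0.00986). In HuRHep-/- livers 1 was higher and 7 lower, with a median of -0.09. Sirt5 was again higher (0.53, adjusted p = 0.00161), and Slc1a2 (-1.03, adjusted p = 0.000735), Aadat (-0.92, adjusted p = 0.00161), Fh1 (-0.43, adjusted p = 0.00371), the amino acid transporter Slc38a4 (-0.45, adjusted p = 0.00832) and Sirt3 (-0.25, adjusted p = 0.0171) were lower.

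Of 7 periportal markers, 4 were lower on HFCF in each genotype and 3 did not pass. In WT livers the list median was -0.66 and the lower genes were Hal, histidine ammonia-lyase (-0.85, adjusted p = 0.00326), Etnppl (-1.62, adjusted p = 0.00446), Cyp2f2 (-0.66, adjusted p = 0.0125) and Cdh1 (-0.67, adjusted p = 0.0414). In HuRHep-/- livers Cyp2f2 (-1.11, adjusted p = 0.000532), Cdh1 (-1.18, adjusted p = 0.00179), Hal (-0.81, adjusted p = 0.0022) and Etnppl (-1.29, adjusted p = 0.00786) were lower, and the list median was -0.81. The summed level of the 7 ran from 4600 to 5296 CPM in chow WT, 2820 to 3649 CPM in HFCF WT, 4506 to 6976 CPM in chow HuRHep-/- and 2464 to 4414 CPM in HFCF HuRHep-/- livers. Of 10 pericentral markers 1 was lower in WT, Cyp1a2 (-1.57, adjusted p = 0.00101), and 1 higher, Glul. In HuRHep-/- livers 4 were lower: Cyp1a2 (-1.88, adjusted p = 0.000234), Slc1a2, Cyp2e1 (-0.60, adjusted p = 0.0126) and Lgr5 (-0.83, adjusted p = 0.0209). The pericentral list median was 0.15 in WT, with 7 of 10 estimates higher, and -0.055 in HuRHep-/-, with 7 of 10 lower. Periportal estimates were lower for 6 of 7 in WT and 5 of 7 in HuRHep-/-. The pericentral sum ran from 10373 to 13387 CPM in chow HuRHep-/- and 8224 to 9542 CPM in HFCF HuRHep-/- livers, without overlap. In WT it overlapped by diet. Both zones thus held genes that fell, but in WT most pericentral estimates were higher.

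Among 11 regulators, 4 were lower and 1 higher on HFCF in WT livers. Hnf4a, a master factor of hepatocytes, was read at 556, 477 and 539 CPM on chow and 342, 407 and 358 CPM on HFCF (-0.51, adjusted p = 0.00255). Cebpa (-0.39, adjusted p = 0.0279), the bile acid receptor Nr1h4 (-0.31, adjusted p = 0.0198) and the glucocorticoid receptor Nr3c1 (-0.27, adjusted p = 0.0146) were lower, and Ppara was higher (0.59, adjusted p = 0.000653). In HuRHep-/- livers 4 were lower: Hnf4a (-0.47, adjusted p = 0.00199), Nr1h4 (-0.50, adjusted p = 0.000987), Nr3c1 (-0.25, adjusted p = 0.0129) and Ppargc1a (-0.91, adjusted p = 0.0241). Of 9 genes that respond to fasting or amino acid supply, Asns, asparagine synthetase, was lower in both genotypes (-2.55, adjusted p = 0.00562, and -2.62, adjusted p = 0.00283). Fgf21 (1.84, adjusted p = 0.00435, and 1.54, adjusted p = 0.00609) and Pdk4 (2.14, adjusted p = 0.0122, and 1.76, adjusted p = 0.0187) were higher in both, and Cpt1a was higher in WT (0.36, adjusted p = 0.00852). Feeding state and time of collection are not in the labels.

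Markers of other cells moved with diet as well. Hepatocyte markers, which define the labelled tissue, were abundant in every library, and 2 of 5 tested were lower in WT (Fgb, -0.86, adjusted p = 0.0059, and Ttr, -0.54, adjusted p = 0.0187) and 2 of 5 in HuRHep-/- (Fgb, -0.90, adjusted p = 0.00277, and Apob, -0.49, adjusted p = 0.00246). Their summed level ran from 83590 to 104759 CPM in chow WT, 61544 to 64833 CPM in HFCF WT, 69529 to 74536 CPM in chow HuRHep-/- and 56968 to 59987 CPM in HFCF HuRHep-/- livers. Alb made up most of each of these sums. Recruited macrophage markers were higher, 5 of 6 passing in WT (Trem2, Cd68, Gpnmb, Lgals3 and Ccr2) and 6 of 6 in HuRHep-/-, where Itgax passed too. Their sum ran from 9.25 to 13.8 CPM in chow WT, 20.3 to 87.0 CPM in HFCF WT, 12.3 to 19.7 CPM in chow HuRHep-/- and 57.4 to 107 CPM in HFCF HuRHep-/- livers. Stellate markers passed for 1 of 6 in WT (Lrat, 0.71, adjusted p = 0.0204) and 6 of 6 in HuRHep-/-, and cholangiocyte markers for 0 of 5 and 5 of 5. Of 6 Kupffer cell markers 2 were higher in each genotype (Cd5l and Vsig4 in WT, Cd5l and Adgre1 in HuRHep-/-). Lymphocyte markers passed for 0 of 6 in WT and 3 of 6 in HuRHep-/- (Cd3e, Cd8a and Nkg7, all higher), neutrophil markers for 0 of 3 and 1 of 3 (Csf3r, higher), and endothelial markers for 0 of 5 in both. Of 6 acute-phase genes 2 were higher in WT (Saa2 and Lcn2) and 2 lower in HuRHep-/- (Saa1 and Saa3). Within HFCF WT, replicate 2, the library highest for all 9 members, had the lowest sums of recruited macrophage (20.3 CPM) and stellate markers (161 CPM). Replicate 1, the lowest for 8 of 9 members, held the middle sums (43.9 and 296 CPM). Replicate 3 held the highest (87.0 and 364 CPM), so the order of the sums did not mirror that of the members. No gene of these marker lists that was listed in both tables was at 0 in any library. Their part in the members' fall was not tested.

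The pattern most like that of Cps1 was sought among 7222 genes with a mean of at least 10 CPM, by Pearson correlation of log2 CPM over the 12 livers after each group's mean had been subtracted. This is a description over libraries that share their tables. The nearest were Ikbkb (r = 0.99), Gls2 (0.98), Eif2s3x (0.97), Ass1 (0.97) and Slc26a1 (0.97). Of the other members Otc stood at 0.89, Slc25a15 at 0.79, Asl at 0.77, Slc25a13 at 0.57, Nags at 0.51 and Glud1 at 0.33, and Glul at -0.10. Within groups, the spread of Cps1 was widest in HFCF WT (SD 422 CPM, n = 3, against 86.1 to 140 CPM in the other groups).

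**Figure D4:**
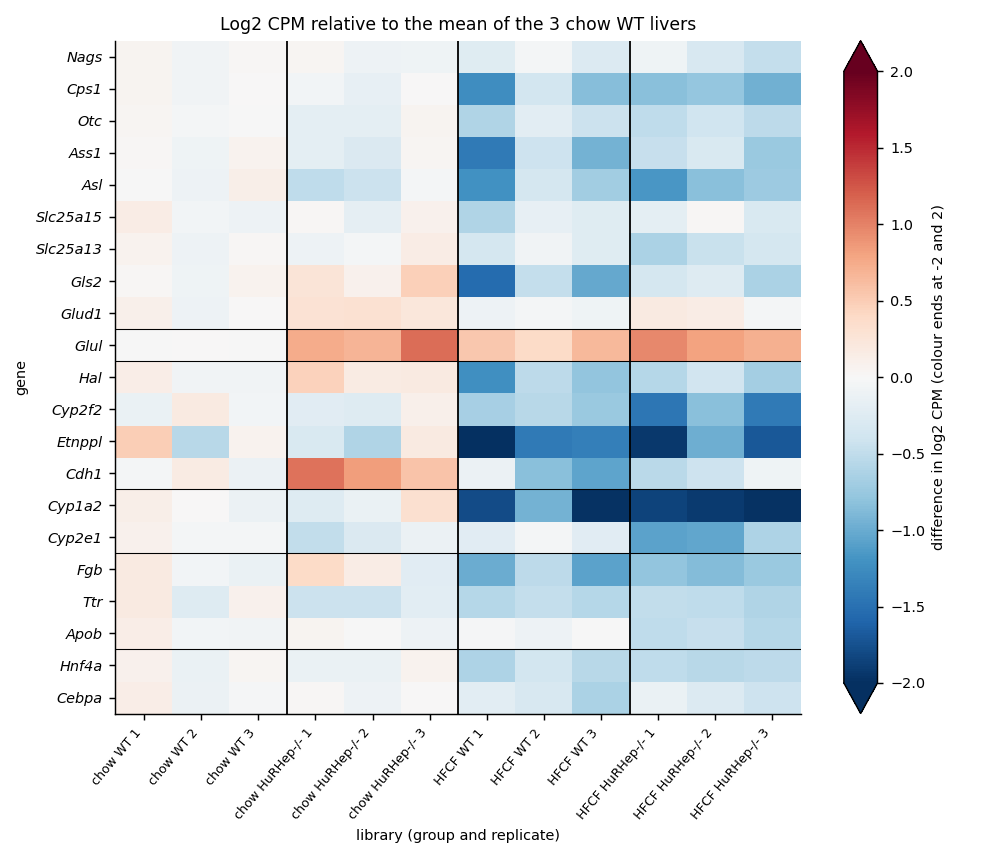
Difference in log2 CPM from the mean of the 3 chow WT livers (colour) for the members and Glul (top rows) and for periportal, pericentral, hepatocyte and regulator genes (rows), in each of the 12 libraries (columns). HFCF WT replicate 1 is the lowest of its group for 8 of 9 members, and Glul is red in all 9 livers outside chow WT.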

How the data were processed

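RNA of 12 mouse livers was sequenced with a stranded kit, and reads were aligned to GRCm38.p6 in CLC Genomics Workbench per the paper and the submitters' processing notes. The authors deposited read counts per gene, not normalized, in 2 tables, one per diet, as text with comma separators, recorded here as another unit. Once the separators were removed, all values were whole numbers. Tests for counts were not used, a choice that followed that record and not the values themselves. Genes numbered 20775 on chow and 22709 on HFCF. Gene names turned into dates (27) were restored through the identifiers. No pair of libraries held identical counts, and replicates correlated at 0.973 to 0.987 on log2 CPM. The labels give 1 library per numbered replicate, so p-values measure the spread between these livers.

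From these counts, log2 CPM (pseudocount 0.5, own TMM factors with trims of 0.3 and 0.05) was tested with limma 3.58.1 in R 4.3.3 with a variance trend and Benjamini-Hochberg adjustment over all genes tested, which was checked on simulated data with known changes. Genes with 15 counts in total entered if 3 or more libraries reached the CPM that 10 counts give in a library of median size. Genotype was fitted within the 6 libraries of each diet, and diet and interaction in all 12. CPM of single libraries used the TMM factors of all 12. The stricter call also needed a fold change of at least 1.5 and 10 counts over each group. Differences are log2 fold changes, HFCF minus chow or HuRHep-/- minus WT. Tried as alternatives were upper-quartile or RLE factors, stricter or no filters, a pseudocount of 2, voom and array quality weights, a replicate block, other sets of libraries, leaving out each library, and, added after the data were seen, library totals without factors. No fit drops or imputes a library otherwise.

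The rule named all 9 members, Elavl1 and Glul in every comparison, of each other list up to 6 genes that passed in a comparison by smallest p (some lists are given by counts alone), and 5 genes nearest to Cps1. One further gene is not reported here. The members and lists were chosen with earlier results of these data known. Shared words, 3′UTRs and lengths came from GENCODE M21 (GRCm38), with 1 transcript per gene, and promoters from RefSeq.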

Additional observations from a re-analysis of the deposited data

How the results depend on the processing

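Of the 10 genes in 5 comparisons, RLE factors, voom weights, a pseudocount of 2 and the absence of a filter changed no direction and no call, nor did the fit on all 12 libraries in the 2 genotype comparisons, where it was run. With array quality weights 2 members passed between genotypes on chow and 2 on HFCF, 7 by diet in WT (Slc25a15 and Slc25a13 added) and 6 in HuRHep-/- (Nags added), where 14.0%, 16.5%, 33.9% and 47.3% of all genes passed. The direction turned for Slc25a13 on chow (-0.039), for Cps1 (0.20), Otc (0.046) and Asl (0.058) on HFCF, for Nags in the interaction (0.013) and for Glul by diet in HuRHep-/- (0.060). With library totals and no factors 1 member passed between genotypes on chow and 2 by diet in HuRHep-/-, where 5.12% and 41.7% of all genes passed. Directions turned there for Cps1 (0.015), Nags (0.036) and Slc25a15 (0.062) on chow, Cps1 (0.096), Otc (0.072) and Nags (0.028) on HFCF, Glud1 by diet in WT (0.11), and Slc25a15 (0.094), Glud1 (0.053) and Glul (0.21) by diet in HuRHep-/-. Glul by diet in HuRHep-/- also turned with upper-quartile factors (0.061) and with 10 counts required in every library (0.019). The added fold rule left 3 members by diet in HuRHep-/-. Leaving out each library gave 0 to 1 members between genotypes on chow, 0 to 1 on HFCF, 4 to 7 by diet in WT, 2 to 5 in HuRHep-/- and 0 to 0 in the interaction. Of all genes, 0.0676% to 3.99%, 0.199% to 8.99%, 13.7% to 27.3%, 28.0% to 41.1% and 0% to 0.283% passed in these fits. Estimates that turned ran from -0.072 to 0.058 for Slc25a15 and -0.064 to 0.054 for Slc25a13 between genotypes on chow, -0.25 to 0.17 for Cps1, -0.16 to 0.024 for Otc and -0.39 to 0.022 for Asl on HFCF, -0.098 to 0.11 for Glul by diet in HuRHep-/-, and -0.18 to 0.26 for Cps1, -0.049 to 0.15 for Otc, -0.064 to 0.37 for Asl and -0.16 to 0.031 for Nags in the interaction. The cause was not tested. The correlations below do not settle whether replicate numbers pair the livers. Same-numbered livers of the 2 genotypes correlated in their deviations from -0.030 to 0.11 on chow and from 0.086 to 0.19 on HFCF. On HFCF each correlated best with its own number, and on chow only WT replicate 2 did. With the replicate number as a block, 0, 0, 5, 5 and 0 members passed in the order of comparisons above. Of all genes, 2.51%, 9.38%, 24.6%, 39.3% and 0% passed with the block, against 4.21%, 6.84%, 24.2%, 38.9% and 0% without it. The lowest count of a member in any library was 1707, so depth limits these values little.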
